A study of Mus musculus with 8 samples.

Results

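The genes described here are the nuclear genes for subunits of the mitochondrial oxidative phosphorylation system, taken from a table of 23038 mouse genes by their symbols: Ndufa, Ndufb, Ndufc, Ndufs and Ndufv genes for complex I, Sdha to Sdhd for complex II, Uqcr genes for complex III, Cox4 to Cox8 genes for complex IV and Atp5a to Atp5l genes for complex V. The symbol patterns took 82 genes. Of these, 37 were grouped under complex I, 4 under complex II, 8 under complex III, 18 under complex IV and 14 under complex V. The remaining gene, Cox4nb, is named Emc8 in RefSeq and encodes a subunit of the endoplasmic reticulum membrane protein complex. It was kept in the counts because the pattern took it, and it was given to no complex. A mean of at least 1 RPKM (reads per kilobase of gene, scaled to library size) in at least 1 group was reached by 79 of the 82 genes, and by 11465 genes of the whole table. Ndufa4l2, Cox8b and Cox8c stayed below it.

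RNA was sequenced from 4 libraries of PFN1 KO cells, in which Cas9 had been directed at Pfn1 (profilin 1, an actin-binding protein), and from 4 libraries of control cells. All were CAD cells (Cath.a differentiated), a mouse line of catecholaminergic neuronal origin, kept undifferentiated in 8% fetal bovine serum. The control libraries are titled WT and carry the genotype label Control KO, and the labels do not say what that control received. The labels give 4 biological replicates for each condition without naming clones or cultures, and the p-values therefore reflect the scatter of these samples alone, which may be technical. Because these are bulk samples, fewer cells of a type and less RNA per cell cannot be told apart.

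Complexes I and II take electrons from NADH and succinate, complex III passes them from coenzyme Q to cytochrome c, and complex IV hands them to oxygen. Complexes I, III and IV pump protons across the inner mitochondrial membrane, and complex V, the ATP synthase, uses the returning flow to make ATP. Apart from complex II, each complex joins subunits encoded in the nucleus with a few encoded in mitochondrial DNA, and neurons depend strongly on this system for ATP. The 13 mitochondrially encoded subunits were looked up by symbol and matched no gene of the table, so they were not analysed here.

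The 8 libraries were estimated at 26300000 to 34600000 reads. Pfn1 itself stood at 152, 130, 130 and 143 RPKM in PFN1 KO libraries 1 to 4, against 428, 399, 429 and 436 RPKM in control libraries 1 to 4. Its transcript was therefore lower in every PFN1 KO library but still present (log2 fold change -1.60, SE 0.051, limma adjusted p = 3.7e-09). Of 15 catecholaminergic neuron markers, 14 reached 1 RPKM in at least 1 group, and their summed level was 1074 to 1116 RPKM in PFN1 KO and 846 to 897 RPKM in control libraries. Of the enzymes of catecholamine synthesis, Dbh averaged 10.4 RPKM in PFN1 KO and 31.7 RPKM in control, Th 0.773 RPKM in PFN1 KO and 2.25 RPKM in control, and Ddc 0.355 RPKM in PFN1 KO and 0.339 RPKM in control. The higher sum in PFN1 KO came mainly from Chgb, a secretory granule protein, at 347 RPKM in PFN1 KO and 162 RPKM in control. Marker sums of astrocytes and microglia stayed at or below 0.266 RPKM in every library. The sums for oligodendrocytes were 1.23 to 1.54 RPKM in PFN1 KO and 0.642 to 1.16 RPKM in control libraries, and those for muscle were 0.634 to 0.959 RPKM in PFN1 KO and 0.319 to 0.626 RPKM in control libraries. Fibroblast marker sums were 2.71 to 3.2 RPKM in PFN1 KO and 2.65 to 3.38 RPKM in control libraries, nearly all from Dcn, with Col3a1 at 0.

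The subunit genes were among the more abundant transcripts in these cells. Over all 8 libraries, the median subunit gene averaged 107 RPKM, against 10.8 RPKM for the median tested gene. Atp5b, the catalytic beta subunit of the ATP synthase, averaged 1572 RPKM and ranked 7 in the whole table. Cox4i1, a structural subunit of complex IV, averaged 761 RPKM and ranked 19, while Sdhb, the iron-sulfur subunit of complex II, averaged 443 RPKM and ranked 50. Within complexes the spread was wide. Complex I genes ran from 2.43 RPKM for Ndufs5 to 405 RPKM for Ndufa4, and complex V genes from 1.33 RPKM for Atp5g2 to 1572 RPKM for Atp5b. Ndufs5 and Atp5g2 have near-identical copies elsewhere in the genome that can share their reads, so these low values are uncertain.

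**Figure D1:**
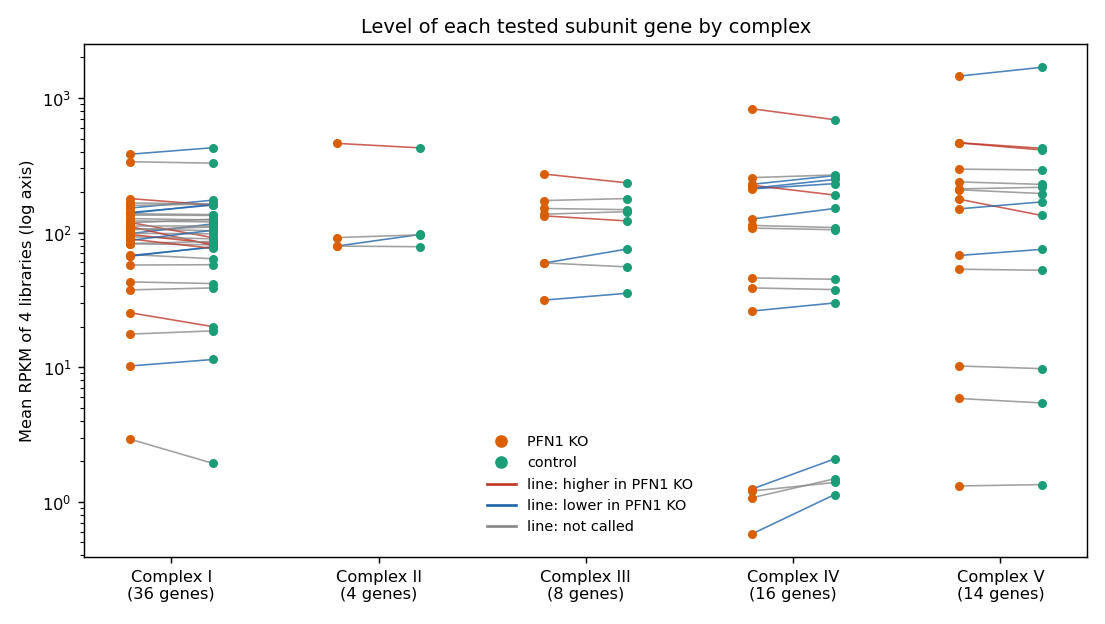
Mean RPKM of each tested subunit gene (points, log axis) in PFN1 KO and in control libraries (4 each), by complex, with a line joining the 2 means of a gene, coloured by its call (Cox4nb is not drawn). Levels within a complex spread over more than the change of any gene, and red lines (higher in PFN1 KO) and blue lines (lower in PFN1 KO) occur side by side in every complex.

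Subunit transcripts moved by small amounts and in both directions. Of the 79 tested genes, 14 were higher in PFN1 KO, which is 17.7% against 30.4% of all tested genes, and 22 were lower, which is 27.8% against 15.5% of all tested genes (limma on log2(RPKM + 1), Benjamini-Hochberg adjusted p under 0.05, two-sided). Together 36 were called, which is 45.6% of the subunit genes, and 45.9% of all tested genes were called, so the share called was near the background while the split leaned the other way. The median log2 fold change was 0.011 over the 79 genes and 0.058 over all tested genes. The 4 PFN1 KO and 4 control values did not overlap for 29 genes, 36.7% of the 79, against 41.4% of all tested genes. Among genes reaching a mean of 50 RPKM in 1 group, 13 of 61 subunit genes were higher and 17 were lower, against 31.4% higher, 23% lower and 54.3% called in all among the 1463 such genes.

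The counts on each side depended on scaling, among the subunit genes and among all tested genes. After median-of-ratios scaling of the RPKM values, 8 of 79 subunit genes were higher and 28 lower, with 22.5% of all tested genes higher and 25.1% lower. The lean against all tested genes kept its direction. All 22 genes called lower without that scaling were among the 28.

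The changes were small. The 14 genes that rose stood at 1.08 to 1.37 times control by mean RPKM, with a median of 1.17. Of the 22 that fell, the 20 with a control mean of at least 5 RPKM stood at 78.7% to 91.3% of control. Among the 43 genes that were not called, the 39 with at least 5 RPKM had ratios of 0.936 to 1.08. Their log2 fold changes reached at most 0.10 in size, and the median SE over these 39 was 0.042.

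Summed over the members of a complex, RPKM differed little between the groups. Complex I summed to 3973 ± 44.2 RPKM in PFN1 KO and 4018 ± 97.1 RPKM in control (SD, n = 4 each). Complex II summed to 711 ± 16.1 RPKM in PFN1 KO and 698 ± 12.1 RPKM in control, and complex III to 1017 ± 32.2 RPKM in PFN1 KO and 992 ± 9.83 RPKM in control. Complex IV summed to 2428 ± 75.9 RPKM in PFN1 KO and 2375 ± 67.8 RPKM in control, and complex V to 3801 ± 81.5 RPKM in PFN1 KO and 3902 ± 48.5 RPKM in control. The ratios of these sums lay between 0.974 for complex V and 1.03 for complex III. These sums are weighted by the abundant genes, and the sums over all members were 11721 to 12230 RPKM in PFN1 KO and 11767 to 12298 RPKM in control libraries, ranges that overlap almost whole.

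**Figure D2:**
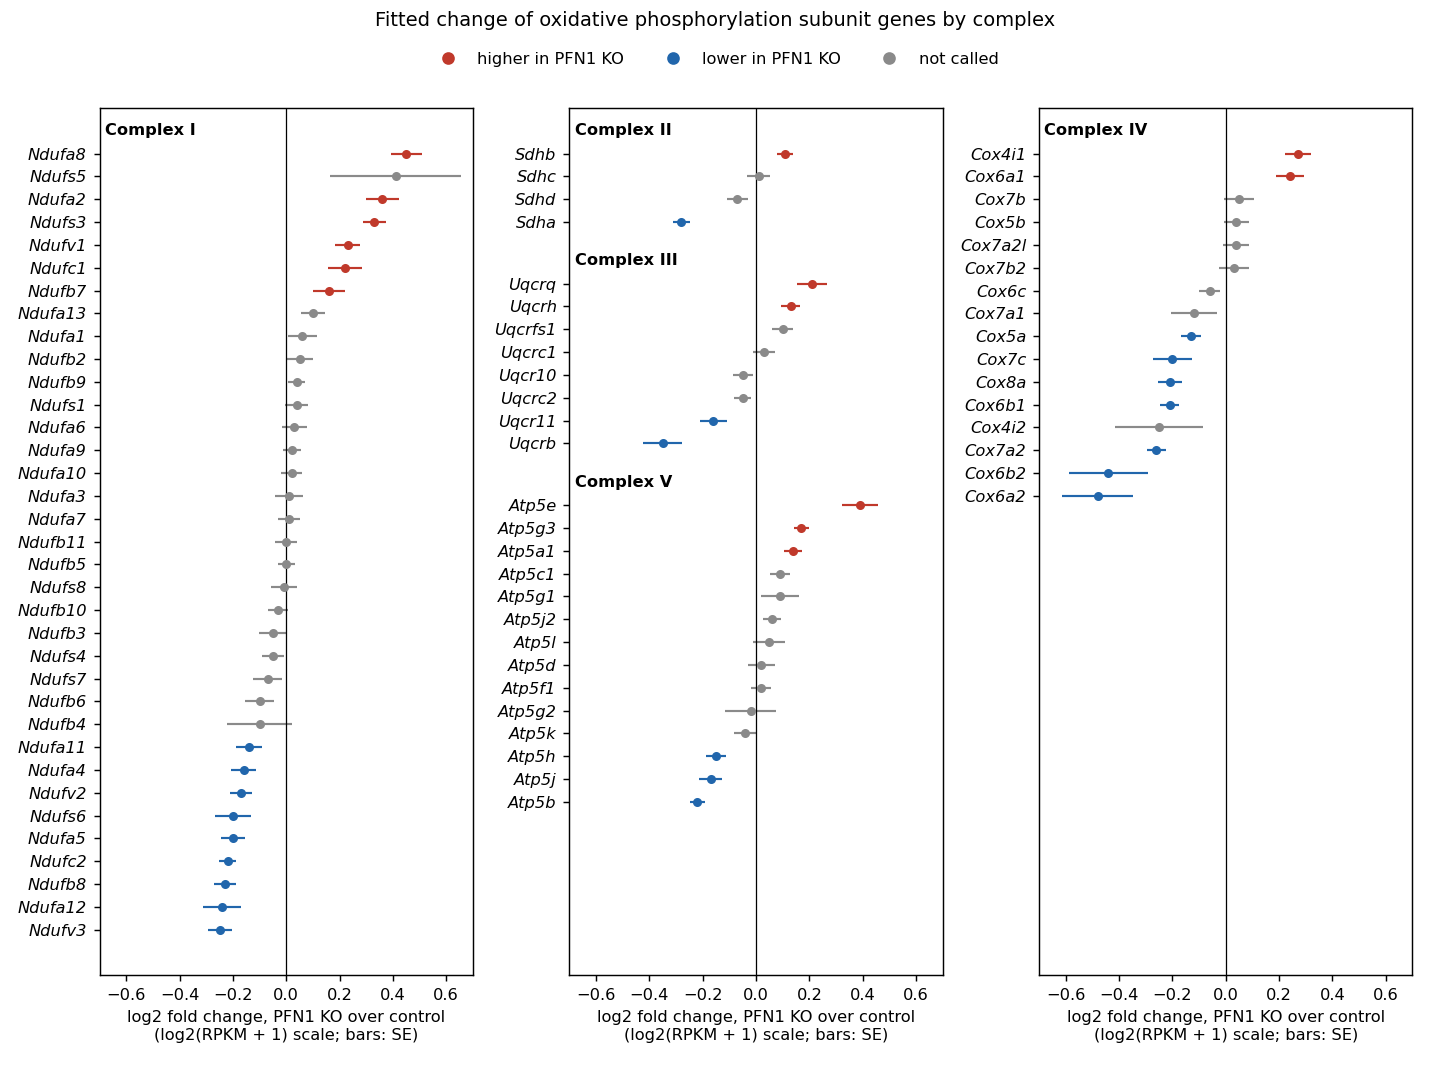
Log2 fold change of the subunit genes shown, in PFN1 KO against control on the log2(RPKM + 1) scale (points, with bars of 1 SE), grouped by complex and coloured by call. Most points lie within 0.3 of 0, with Ndufa8 at 0.45, Ndufs5 (not called) at 0.41 and Atp5e at 0.39 at the upper end and Cox6a2 at -0.48 and Cox6b2 at -0.44 at the lower end.

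Complex I, the NADH dehydrogenase, had 36 tested genes, of which 6 were higher and 9 lower in PFN1 KO, with a median log2 fold change of 0.007. Among the 3 core subunits of the NADH-binding module, 1 rose, 1 fell and 1 was not called. Ndufv1, which carries the flavin that takes electrons from NADH, had 98.8, 84.5, 85.1 and 90.5 RPKM in PFN1 KO libraries, against 76.5, 75.3, 76.4 and 77.1 RPKM in control libraries. Every PFN1 KO library lay above every control library, with library 1 the highest (log2 fold change 0.23, SE 0.048, adjusted p = 0.00238). Its partner Ndufv2, an iron-sulfur subunit, moved the other way, with 133, 145, 145 and 143 RPKM in PFN1 KO libraries, against 156, 162, 152 and 168 RPKM in control libraries. All PFN1 KO values were below all control values (log2 fold change -0.17, SE 0.041, adjusted p = 0.00519). Ndufs1, the largest core subunit, averaged 43.0 ± 1.93 RPKM in PFN1 KO and 41.8 ± 1.48 RPKM in control (adjusted p = 0.495).

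Among the core subunits of the quinone-binding module, which leads electrons to coenzyme Q, Ndufs3 rose, while Ndufs7 and Ndufs8 were not called. Ndufs3 had 26.2, 25, 24.3 and 26.2 RPKM in PFN1 KO libraries, against 20.6, 20, 19.2 and 20.3 RPKM in control libraries. The groups were well apart (log2 fold change 0.33, SE 0.043, adjusted p = 0.000102). Ndufs8 averaged 57.4 ± 2.65 RPKM in PFN1 KO and 57.7 ± 3.35 RPKM in control, and its ranges overlapped.

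The accessory subunits of the matrix arm, which surround the core, held 4 of the 9 genes of complex I that fell. Ndufv3 had 86.2, 90.4, 87.5 and 86.0 RPKM in PFN1 KO libraries, against 97.5, 110, 99.3 and 109 RPKM in control libraries. No value overlapped (log2 fold change -0.25, SE 0.045, adjusted p = 0.00107). Ndufa12 averaged 98.2 ± 11.5 RPKM in PFN1 KO and 116 ± 6.22 RPKM in control (adjusted p = 0.0165), but its groups overlapped and the call was lost without PFN1 KO library 4. Ndufa5 stood at 87.3% of control (adjusted p = 0.00512), and Ndufs6, at 86.7% of control, lost its call without PFN1 KO library 2 or 3 or control library 1. Ndufa2 was the member of this set that rose, with 133, 105, 115 and 122 RPKM in PFN1 KO libraries, against 94.2, 86.0, 93.2 and 93.5 RPKM in control libraries. All PFN1 KO values were above the control range (log2 fold change 0.36, SE 0.062, adjusted p = 0.000625).

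Of the 19 accessory subunits of the membrane arm, which holds the proton-pumping part, 3 rose, 3 fell and 13 were not called. Ndufa8 had the largest log2 fold change among the subunit genes that rose. It stood at 121, 102, 104 and 116 RPKM in PFN1 KO libraries, against 86.9, 76.8, 78.9 and 80.0 RPKM in control libraries, without overlap (log2 fold change 0.45, SE 0.058, adjusted p = 9.3e-05). Ndufc1 averaged 96.9 ± 6.38 RPKM in PFN1 KO and 83.1 ± 7.15 RPKM in control (adjusted p = 0.0131), with overlapping values, and was not called after median-of-ratios or upper-quartile scaling. Ndufb7, at 179 ± 16.4 RPKM in PFN1 KO and 160 ± 9.06 RPKM in control, passed narrowly (adjusted p = 0.0487), and 12 of 22 alternative analyses lost the call, among them the fits without PFN1 KO library 1 or 4 and those without control library 1, 2 or 3.

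Ndufc2 and Ndufb8, both of the membrane arm, were the clearest of the 3 that fell. Ndufc2 had 139, 145, 133 and 139 RPKM in PFN1 KO libraries, against 164, 160, 162 and 164 RPKM in control libraries. The control values sat within a few RPKM of each other and above every PFN1 KO value (log2 fold change -0.22, SE 0.033, adjusted p = 0.000255). Ndufb8 had 64.2, 68.8, 66.6 and 67.3 RPKM in PFN1 KO libraries, against 80.7, 76.2, 74.2 and 82.5 RPKM in control libraries, also without overlap (log2 fold change -0.23, SE 0.042, adjusted p = 0.00104). Ndufa11 stood at 90.1% of control (adjusted p = 0.0343), a call that was lost without PFN1 KO library 2 or 3 and without control library 2 or 4. Ndufb5 had the smallest change of the complex, at 112 ± 1.72 RPKM in PFN1 KO and 112 ± 2.78 RPKM in control. Ndufs5 was not called either (2.92 ± 1.4 RPKM in PFN1 KO and 1.93 ± 0.949 RPKM in control), and rested on 3 to 15 estimated reads a library.

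Ndufa4 was first assigned to complex I and is now placed in complex IV. It was the most abundant gene with a complex I symbol and had 352, 396, 399 and 382 RPKM in PFN1 KO libraries, against 410, 437, 410 and 451 RPKM in control libraries. The groups did not overlap (log2 fold change -0.16, SE 0.046, adjusted p = 0.0144). Its paralog Ndufa4l2, known as a hypoxia-induced gene, stayed below 1 RPKM in every library.

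The catalytic subunits of complex II, succinate dehydrogenase, moved in opposite directions. Sdha, the flavoprotein that oxidises succinate in the citric acid cycle, had 78.6, 80.0, 79.0 and 79.9 RPKM in PFN1 KO libraries, against 94.5, 96.3, 97.7 and 98.9 RPKM in control libraries. The PFN1 KO values lay close together and all below control (log2 fold change -0.28, SE 0.031, adjusted p = 3.11e-05). Sdhb, which passes the electrons on through iron-sulfur clusters, had 474, 452, 463 and 452 RPKM in PFN1 KO libraries, against 426, 419, 420 and 439 RPKM in control libraries. This rise was small but without overlap (log2 fold change 0.11, SE 0.030, adjusted p = 0.00946), and it was not called after median-of-ratios or upper-quartile scaling. The membrane anchors were not called. Sdhc averaged 79.4 ± 4.27 RPKM in PFN1 KO and 78.5 ± 1.89 RPKM in control, and Sdhd averaged 91.8 ± 3.92 RPKM in PFN1 KO and 96.2 ± 2.98 RPKM in control. Sdhd was called lower without PFN1 KO library 1, after median-of-ratios or upper-quartile scaling, and after correction for GC content.

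In complex III, the cytochrome bc1 complex, the calls were all among the small accessory subunits. The core proteins Uqcrc1 and Uqcrc2 and the Rieske iron-sulfur protein Uqcrfs1 were not called. This depended on scaling for Uqcrc2, which was called lower after median-of-ratios, upper-quartile or cyclic loess scaling. Uqcrc2 averaged 173 ± 3.89 RPKM in PFN1 KO and 179 ± 3.69 RPKM in control, and Uqcrfs1 averaged 59.5 ± 2.29 RPKM in PFN1 KO and 55.6 ± 1.81 RPKM in control (adjusted p = 0.0677).

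Of the 5 small subunits, 2 fell and 2 rose. Uqcrb, which helps to form the quinone site, had 52.0, 62.7, 67.6 and 55.3 RPKM in PFN1 KO libraries, against 75.5, 81.4, 70.9 and 74.1 RPKM in control libraries. Its PFN1 KO values varied more than those of most members but stayed below control, at 78.7% of it by mean (log2 fold change -0.35, SE 0.073, adjusted p = 0.00263). Uqcr11 stood at 89.1% of control (adjusted p = 0.0205). Uqcrq, a subunit next to cytochrome b, had 310, 255, 261 and 262 RPKM in PFN1 KO libraries, against 237, 221, 236 and 241 RPKM in control libraries. PFN1 KO library 1 was far above the other 3, yet all 4 lay above control (log2 fold change 0.21, SE 0.057, adjusted p = 0.00977). Uqcrh, the acidic hinge protein, averaged 133 ± 1.86 RPKM in PFN1 KO and 122 ± 4.95 RPKM in control (adjusted p = 0.00984). Uqcrq and Uqcrh were not called after median-of-ratios scaling.

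**Figure D3:**
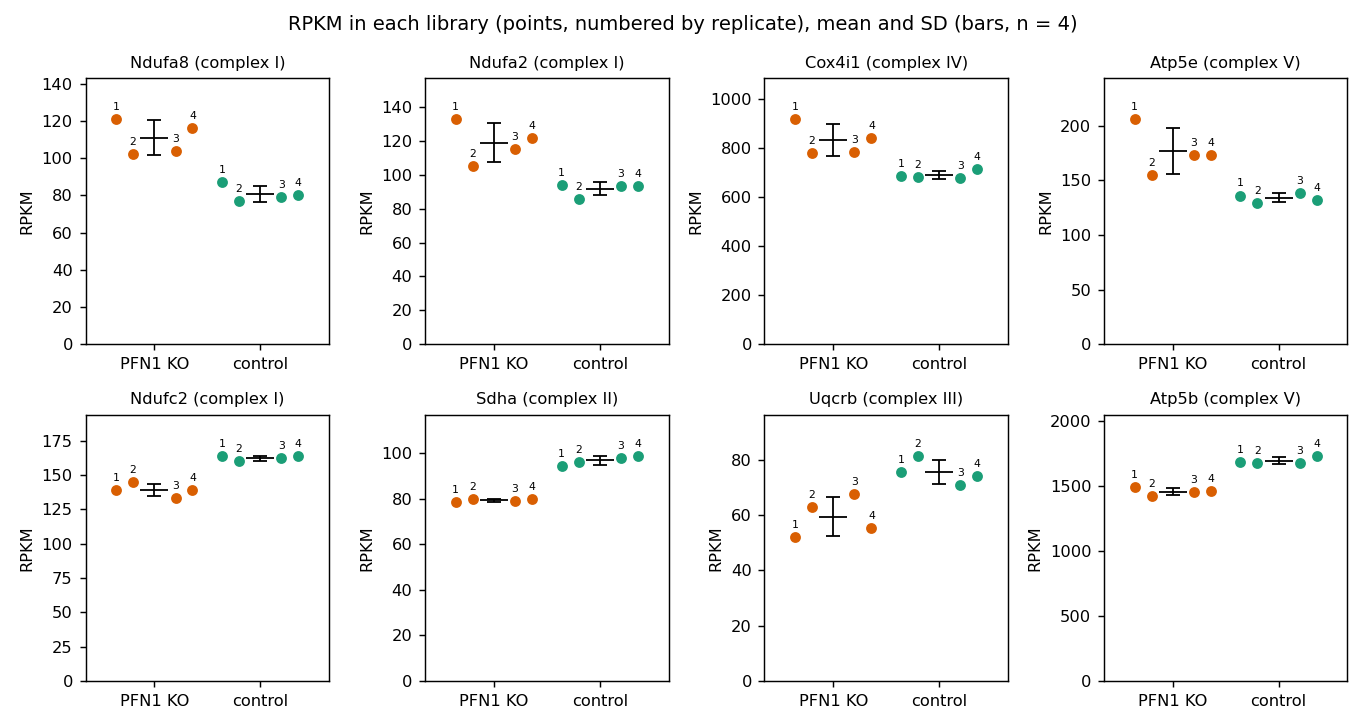
RPKM of 8 subunit genes in each library (points, numbered by replicate), with the mean and SD of 4 libraries, PFN1 KO left and control right. In the upper row all PFN1 KO libraries lie above all control libraries, with library 1 the highest in each panel; in the lower row they lie below, and the groups of Sdha and Atp5b are tight.

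Complex IV, cytochrome c oxidase, had the lowest median log2 fold change of the 5 complexes, at -0.125 over 16 tested genes, of which 2 rose and 7 fell. Among all tested genes, 30.4% rose and 15.5% fell. The tissue isoforms Cox4i2, Cox6a2, Cox6b2 and Cox7a1, at means of 0.853 to 1.66 RPKM, lowered that median. Their log2 fold changes were -0.25, -0.48, -0.44 and -0.12. With a filter of at least 5 RPKM, 2 genes rose and 5 fell. By summed RPKM complex IV stood at 1.02 times control, since Cox4i1 was both the most abundant member and one of those that rose. Cox4i1 had 919, 782, 784 and 842 RPKM in PFN1 KO libraries, against 688, 681, 678 and 713 RPKM in control libraries. All PFN1 KO values lay above control (log2 fold change 0.27, SE 0.048, adjusted p = 0.000894). Cox6a1, the general isoform of subunit 6A, had 239, 216, 208 and 239 RPKM in PFN1 KO libraries, against 198, 177, 197 and 190 RPKM in control libraries. It also rose without overlap (log2 fold change 0.24, SE 0.052, adjusted p = 0.00276).

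Of the 10 general isoforms, 5 fell. Cox7a2 had 128, 124, 128 and 123 RPKM in PFN1 KO libraries, against 157, 144, 151 and 151 RPKM in control libraries. The groups were apart by more than either's range (log2 fold change -0.26, SE 0.035, adjusted p = 0.000127). Cox6b1, which faces cytochrome c and helps hold the dimer together, had 226, 222, 230 and 235 RPKM in PFN1 KO libraries, against 264, 262, 253 and 280 RPKM in control libraries. No value overlapped (log2 fold change -0.21, SE 0.036, adjusted p = 0.000612). Cox8a stood at 86% of control (adjusted p = 0.00259), Cox5a at 91.3% (adjusted p = 0.0162), and Cox7c at 86.9% (adjusted p = 0.045). The Cox7c groups overlapped and its call was lost in 9 of 22 alternatives, among them those without PFN1 KO library 1 or 4 and without control library 1, 2 or 4. The Cox5a call was lost without control library 1. Cox5b, Cox6c and Cox7b were not called, with ratios of 1.03, 0.957 and 1.04.

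Several subunits of complex IV have isoforms tied to particular tissues. Cox6a2, the heart and muscle isoform of 6A, had 0.629, 1.27, 1.75 and 1.31 RPKM in PFN1 KO libraries, against 1.74, 2.33, 2.2 and 2.04 RPKM in control libraries. The ranges overlapped narrowly, at 13 to 57 estimated reads a library, and the gene was called lower (log2 fold change -0.48, SE 0.134, adjusted p = 0.0123). Together with the rise of Cox6a1, its share of Cox6a RPKM was 0.557 ± 0.234% in PFN1 KO and 1.08 ± 0.174% in control. Muscle markers were near 0 in all libraries, as given above. Cox6b2, the testis isoform of 6B, averaged 0.575 ± 0.299 RPKM in PFN1 KO and 1.13 ± 0.369 RPKM in control (adjusted p = 0.0299), on 4 to 31 reads, and lost its call without PFN1 KO library 3 or 4 and without control library 3. Cox8b, a heart and muscle isoform, was below the threshold for testing at 0.19, 0.482, 0.668 and 0.639 RPKM in PFN1 KO libraries, against 0.162, 0.0798, 0.105 and 0 RPKM in control libraries. The groups did not overlap, on 0 to 13 reads a library. Cox8c, a testis isoform, was listed at 0 in every library.

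Cox4i2, the lung isoform of subunit 4, averaged 1.07 ± 0.386 RPKM in PFN1 KO and 1.48 ± 0.556 RPKM in control (adjusted p = 0.227), while Cox4i1 held 99.9% of Cox4i RPKM in PFN1 KO and 99.8% in control. Cox7a1, the heart and muscle isoform of 7A, averaged 1.2 ± 0.183 RPKM in PFN1 KO and 1.39 ± 0.221 RPKM in control (adjusted p = 0.278). Cox7b2 was at 46.0 ± 3.81 RPKM in PFN1 KO and 45.0 ± 1.73 RPKM in control, and made up 28.9% of Cox7b RPKM in PFN1 KO and 29.3% in control. Cox7a2l, which links complexes III and IV into supercomplexes and is not itself a regular subunit, averaged 38.8 ± 2.38 RPKM in PFN1 KO and 37.7 ± 1.58 RPKM in control (adjusted p = 0.554). With Cox7a2 lower, Cox7a2l made up 23.4 ± 1.12% of Cox7a RPKM in PFN1 KO and 19.8 ± 0.717% in control, and the groups did not overlap.

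In complex V, 3 of 14 genes rose, 3 fell and 8 were not called. Among the 5 genes of the F1 head, where ATP is made, the alpha subunit rose and the beta subunit fell. Atp5b had 1488, 1421, 1451 and 1456 RPKM in PFN1 KO libraries, against 1684, 1673, 1672 and 1730 RPKM in control libraries. The gap between the groups was wider than the range within either (log2 fold change -0.22, SE 0.027, adjusted p = 6.7e-05). Atp5a1, the alpha subunit, had 489, 443, 456 and 473 RPKM in PFN1 KO libraries, against 420, 420, 422 and 428 RPKM in control libraries. It was higher in all 4 (log2 fold change 0.14, SE 0.034, adjusted p = 0.00611), but not called after median-of-ratios or upper-quartile scaling.

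Atp5e, the epsilon subunit of the central stalk, had 206, 155, 173 and 173 RPKM in PFN1 KO libraries, against 136, 129, 138 and 132 RPKM in control libraries. All PFN1 KO values were above control (log2 fold change 0.39, SE 0.068, adjusted p = 0.00074). Atp5c1, the gamma subunit, averaged 208 ± 9.19 RPKM in PFN1 KO and 195 ± 3.28 RPKM in control (adjusted p = 0.0538). Atp5d, the delta subunit, averaged 296 ± 24.4 RPKM in PFN1 KO and 292 ± 5.44 RPKM in control (adjusted p = 0.825).

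The c ring, through which protons turn the rotor, is encoded by 3 genes for the same mature protein. Atp5g3 had 472, 463, 460 and 461 RPKM in PFN1 KO libraries, against 415, 405, 401 and 424 RPKM in control libraries, without overlap (log2 fold change 0.17, SE 0.029, adjusted p = 0.000509). It made up 98.5% of Atp5g RPKM in PFN1 KO and 98.4% in control. Among annotated transcripts, Atp5g1 and Atp5g2 have near-identical copies and Atp5g3 has none, so these shares are uncertain. Atp5g1 (5.85 ± 0.546 RPKM in PFN1 KO and 5.42 ± 0.369 RPKM in control) and Atp5g2 (1.31 ± 0.233 RPKM in PFN1 KO and 1.34 ± 0.24 RPKM in control) were not called. In the peripheral stalk, which holds the head still, Atp5h (subunit d) stood at 90.1% of control (adjusted p = 0.00555) and Atp5j (coupling factor 6) at 89% (adjusted p = 0.00788), while Atp5f1 (subunit b) was not called. The membrane subunits Atp5j2, Atp5k and Atp5l were not called, with ratios of 0.972 to 1.04.

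**Figure D4:**
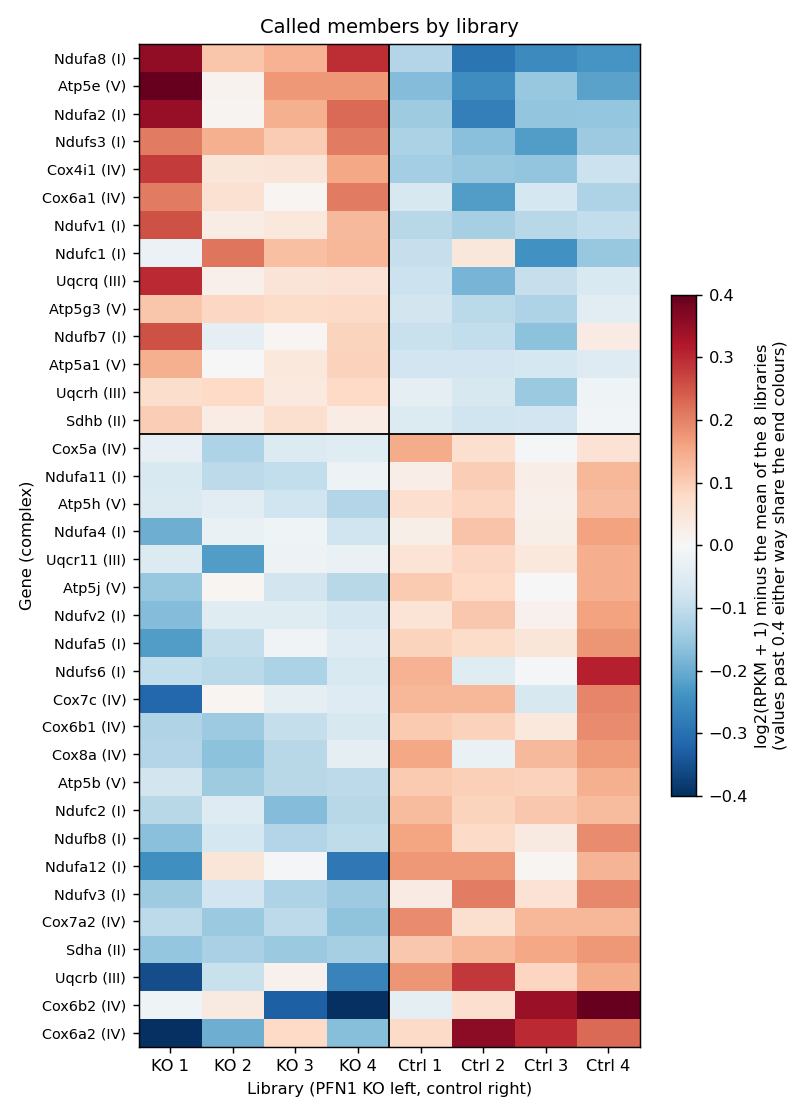
Log2(RPKM + 1) of the called subunit genes in each library, minus the gene's mean over the 8 libraries, with rows ordered by log2 fold change (complex in brackets), PFN1 KO libraries left and control libraries right. PFN1 KO library 1 is the darkest red in most of the 14 genes that rose; the 22 that fell are mostly blue in PFN1 KO, with single pale red cells in rows such as Ndufa12, Cox7c and Cox6a2.

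Chromosome 2 stood apart in the whole table: 68.5% of its tested genes were higher in PFN1 KO, against 27% of those on other chromosomes. The 6 tested subunit genes on it were Ndufa8, Ndufs3, Cox4i2, Atp5c1, Atp5e and Atp5g3. Of these, 4 rose, which is 66.7%, and 0 fell. Off chromosome 2, 10 of 73 subunit genes rose, which is 13.7% against 27% of genes there, and 22 fell, which is 30.1% against 16.5%. Whether these 4 genes rose with the rest of the chromosome or on their own was not tested. Ndufa8, Ndufs3, Atp5e and Atp5g3 are the subunit genes this touches, and the other 10 that rose lie elsewhere.

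Single libraries also moved with the calls. PFN1 KO library 1 was the highest of the 4 PFN1 KO libraries in 12 of the 14 genes that rose, and the lowest in 9 of the 22 that fell. How often this held among all called genes was not counted. That library sat low for AT-rich genes: the median deviation from the 8-library mean was -0.124 (log2) in the sixth of genes with the lowest coding GC content, and 0.058 in the sixth with the highest. Control library 4 had 0.110 and -0.019 there. The median coding GC content was 53.6% for the 14 genes that rose, 51.8% for the 22 that fell and 53.8% for those not called. Without both libraries, 17 of 78 subunit genes were higher and 18 lower. All 14 of the original higher calls were among the 17. Of all 11472 genes tested in that fit, 4415 were higher and 1572 lower. With a correction for GC content, chosen after seeing the data, 16 of 79 subunit genes were higher and 23 lower. Of all 10833 genes in that fit, 3551 were higher and 1909 lower.

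Many subunit genes have processed copies elsewhere in the genome, and reads can be shared with them. Of the 79 tested genes, 17 had at least 1 near-identical copy among annotated GENCODE transcripts (at least 95% identity over at least 90% of the coding sequence), and their values are uncertain for that reason. Copies outside the annotated transcripts were not sought, so the other genes may have some. The called genes with such a copy are Ndufs3, Uqcrb, Uqcr11, Cox7c and Atp5h. Ndufs5, Atp5g1, Atp5g2 and Cox7b, which were not called, are also among the 17. The levels of these genes and the shares within Atp5g and Cox7b given above carry the same uncertainty. Genes without such a copy had a median of 122 RPKM, those with 1 or 2 had 35.8 RPKM and the 3 genes with more had 67.4 RPKM. Atp5l, with 8 copies, stood at 10.2 ± 0.727 RPKM in PFN1 KO and 9.75 ± 0.525 RPKM in control.

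Subunit genes are known targets of the transcription factors NRF1 (nuclear respiratory factor 1), GABP (an ETS family factor also called NRF2) and YY1, so their promoters were searched. RefSeq promoter windows on GRCm38.p6, from 250 bases before to 50 bases after the start of the gene, were given for 65 tested subunit genes. The ETS motif CCGGAAG, on either strand, was in 16 of these, 24.6%, against 21.6% of the windows of all tested genes. It was in 6 of 10 windows of genes that rose, 5 of 20 of genes that fell and 5 of 35 of genes not called. The NRF1 core GCGCATG was in 13 of the 65 windows, 20% against 8.51%: 3 of genes that rose, 3 of genes that fell and 7 of genes not called. The YY1 core ATGGCGG was in 10, 15.4% against 10.1%, with 0 among genes that rose, 4 among those that fell and 6 among those not called. CCAAT was in 29, 44.6% against 43.7%. The searched letters do not contain one another, though matches may adjoin. Each match is a match of letters only. Stretches around the ETS motif are shown for genes that rose and that fell, a motif picked after its counts were seen; the capitals mark the motif or its reverse complement, each is read 5′ to 3′ on the gene's strand, and all coordinates are GRCm38.p6.
Atp5e, higher, chr2:174464172-174464228, minus strand: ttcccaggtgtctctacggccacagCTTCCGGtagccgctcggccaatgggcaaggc
Ndufs3, higher, chr2:90904722-90904773, minus strand: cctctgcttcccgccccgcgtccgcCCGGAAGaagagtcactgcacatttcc
Ndufb7, higher, chr8:83566713-83566757, plus strand: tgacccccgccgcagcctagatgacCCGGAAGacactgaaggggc
Cox6a1, higher, chr5:115348959-115348999, minus strand: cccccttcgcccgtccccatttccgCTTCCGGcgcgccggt
Cox6b1, lower, chr7:30626115-30626167, minus strand: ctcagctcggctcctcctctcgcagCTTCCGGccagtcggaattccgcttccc
Atp5h, lower, chr11:115419926-115419982, minus strand: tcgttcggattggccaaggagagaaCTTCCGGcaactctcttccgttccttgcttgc
Atp5j, lower, chr16:84835006-84835062, minus strand: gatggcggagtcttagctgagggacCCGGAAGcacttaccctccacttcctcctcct
The motif lies 9 to 95 bases before the annotated start in these 7 genes, and genes of both directions carry it.
The NRF1 core, in capitals below, lay 155 bases before the start of Cox6a1 and 46 bases before that of Sdhb, which both rose, and 53 bases before that of Ndufa11, which fell.
Cox6a1, higher, chr5:115349089-115349145, minus strand: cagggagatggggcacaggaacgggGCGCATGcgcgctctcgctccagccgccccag
Sdhb, higher, chr4:140961193-140961249, plus strand: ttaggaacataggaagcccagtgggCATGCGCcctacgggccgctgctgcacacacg
Ndufa11, lower, chr17:56717677-56717733, plus strand: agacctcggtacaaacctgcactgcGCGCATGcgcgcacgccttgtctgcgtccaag

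The genes for these factors and for other parts of the system were read from lists chosen with earlier results in view. Of 20 tested regulators of mitochondrial biogenesis, 4 rose (20% against 30.4% of all tested genes) and 3 fell (15% against 15.5%). The 4 higher calls became 1 without PFN1 KO library 2 or control library 3, 2 without PFN1 KO library 3 or 4 or control library 1 or 2, and 1 under median-of-ratios, upper-quartile or cyclic loess scaling, while the 3 lower calls became 5 under median-of-ratios scaling. Nrf1 (6.69 ± 0.405 RPKM in PFN1 KO and 6.15 ± 0.345 RPKM in control), Gabpa (24.8 ± 1.92 RPKM in PFN1 KO and 26.0 ± 1.42 RPKM in control) and Yy1 (25.1 ± 2.03 RPKM in PFN1 KO and 24.3 ± 2.23 RPKM in control) were not called. Tfam, which packages and transcribes mitochondrial DNA, averaged 16.5 ± 0.464 RPKM in PFN1 KO and 19.6 ± 0.644 RPKM in control (log2 fold change -0.24, SE 0.043, adjusted p = 0.000975). Myc, a growth regulator, stood at 84.6% of control and Mterfd1 (Mterf3), a repressor of mitochondrial transcription, at 79.2%. Gabpb2, a beta subunit of GABP, stood at 1.2 times control (adjusted p = 0.0193), a call lost without PFN1 KO library 2 or control library 1 or 3, and Ppargc1a, at 0.00896 RPKM in PFN1 KO and 0.0151 RPKM in control, was not tested.

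Assembly factors build the complexes without staying in them. Of 49 tested, 15 rose, 30.6% against 30.4% of all tested genes, and 2 fell, 4.08% against 15.5%. On chromosome 2, 4 of 5 rose (Ndufaf1, 2310003L22Rik, Uqcc and Surf1), and off it 11 of 44 did, 25% against 27% of genes there. The Ndufaf1 call was lost in 11 of 21 alternatives, every scaling among them. The fits without PFN1 KO library 1, 3 or 4 or control library 1, 2 or 3 also lost it. By complex, of 14 tested factors of complex I, 4 rose and 1 fell, of 5 of complex III 3 rose, of 22 of complex IV 7 rose and 1 fell, and of 4 of complex V 1 rose, while 0 of the 4 of complex II were called. The count of 7 became 4 without control library 2, the single higher call of complex V (Tmem70) was lost without PFN1 KO library 2 or 3 or control library 1 or 3, and the single lower calls of complexes I and IV were also lost in fits without 1 library (PFN1 KO 2, 3 or 4 or control 1 or 2 for complex I, control 1 for complex IV). In complex II, 1 factor was called higher without PFN1 KO library 2 or control library 3, and 1 lower without control library 2. Uqcc (Uqcc1), needed for cytochrome b synthesis, averaged 19.2 ± 0.273 RPKM in PFN1 KO and 14.8 ± 0.488 RPKM in control (log2 fold change 0.35, SE 0.042, adjusted p = 5.19e-05), and lies on chromosome 2. Bcs1l, which inserts the Rieske protein that was itself not called, stood at 125% of control (adjusted p = 0.00115). Sco2, a copper chaperone of complex IV, stood at 1.26 times control (adjusted p = 0.000386) and Cox16 at 1.27 times (adjusted p = 0.0019).

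Of the 8 tested subunits or electron carriers that the symbol patterns left out, Atpif1, the inhibitor of the ATP synthase, rose to 1.16 times control (122 ± 3.59 RPKM in PFN1 KO and 106 ± 7.43 RPKM in control, adjusted p = 0.0035). Usmg5, a membrane subunit of the synthase, stood at 88.5% of control (adjusted p = 0.0437). It was no longer called in 10 of 22 alternatives, among them those without PFN1 KO library 1 or control library 1, 2 or 4 and the authors' deposited test. The other 6, among them Cyc1, cytochrome c1 of complex III, and Atp5o, the stalk protein that joins the head, were not called, though 2 of the 8 were higher without PFN1 KO library 4. Of 7 tested carriers for nucleotides, phosphate and protons, 1 rose (14.3% against 30.4%) and 2 fell (28.6% against 15.5%), but 2 rose without control library 4 and 4 fell under median-of-ratios or upper-quartile scaling. Ucp2, an uncoupling protein of the inner membrane, averaged 66.8 ± 1.69 RPKM in PFN1 KO and 43.9 ± 0.633 RPKM in control (log2 fold change 0.59, SE 0.034, adjusted p = 2.99e-07). Slc25a3, the phosphate carrier, stood at 91.3% of control and Vdac2, a channel of the outer membrane, at 91.5%.

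Coenzyme Q carries electrons from complexes I and II to complex III. Of 13 tested genes of its synthesis, 5 rose (38.5% against 30.4% of all tested genes) and 1 fell (7.69% against 15.5%), with a median log2 fold change of 0.155. Of the 5, Coq4 and Pdss1 lie on chromosome 2, and without that chromosome 3 rose. Coq4 averaged 9.75 ± 0.707 RPKM in PFN1 KO and 6.27 ± 0.301 RPKM in control (log2 fold change 0.56, SE 0.059, adjusted p = 2.26e-05). Coq5, a methyltransferase of the pathway, stood at 1.32 times control (adjusted p = 8.49e-05) and Coq9 at 1.23 times (adjusted p = 0.000642). Coq7, a hydroxylase of the same pathway, fell to 79.3% of control (adjusted p = 0.00106).

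The citric acid cycle and the pyruvate dehydrogenase complex, which supply NADH and succinate to the chain, had 5 genes that rose and 8 that fell among 17 tested, 29.4% against 30.4% and 47.1% against 15.5% of all tested genes, with a median log2 fold change of -0.058. The 5 became 3 under median-of-ratios or upper-quartile scaling, and 3 without chromosome 2, where Idh3b and Pdhx lie. Sucla2, the ATP-forming subunit of succinyl-CoA ligase, fell to 75.8% of control (adjusted p = 2.19e-05). Cs, citrate synthase, averaged 149 ± 0.619 RPKM in PFN1 KO and 180 ± 1.77 RPKM in control (log2 fold change -0.27, SE 0.028, adjusted p = 1.98e-05). Dld, the dehydrogenase shared by the oxo acid complexes, stood at 83.9% of control (adjusted p = 0.00139) and Fh1, fumarase, at 85.1% (adjusted p = 0.000788). Pdha1, a subunit of pyruvate dehydrogenase, was among those that rose, at 1.17 times control (adjusted p = 0.000259). Sdha, which belongs to the cycle as well as to complex II, stood at 82% of control.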

How the data were processed

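Total RNA of 8 CAD cell libraries (4 PFN1 KO and 4 control) was prepared with a stranded kit after removal of ribosomal RNA, per the labels' protocols. Rn45s, a ribosomal RNA gene, still averaged 16364 RPKM in PFN1 KO and 21622 RPKM in control. Its part in the RPKM scaling was not tested. The authors deposited 1 table of RPKM values per gene and library, which also holds their log2 fold change, mean log2 CPM and p-value with its adjusted value, per the file headers. Tools named in the submitters' processing notes are Bowtie, TopHat, RSEM, CASAVA and edgeR, with hg19 as build, without roles. The gene numbers are those of mouse genes, and strand use in counting is not given in the sources used here. A count test was planned, but the table holds RPKM, so limma 3.58.1 in R 4.3.3 was run on log2(RPKM + 1) with a trended prior and group as the only term, over the 11465 genes whose mean reached 1 RPKM in at least 1 group. Genes were called at a two-sided Benjamini-Hochberg adjusted p under 0.05. Fold changes on this scale understate the change of low genes, and ratios are of mean RPKM. Depth is not stated. It was estimated from the RPKM steps that 1 read makes in low genes, together with the authors' mean log2 CPM. Of 4681 low genes looked at, 67.4% gave whole reads, so read numbers are approximate and cover counting error only.

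Members, gene lists and functional roles were chosen with earlier results of these data known. Named genes were, in each complex, up to 4 called higher and up to 4 called lower by size of log2 fold change, the most abundant gene and the gene with the smallest change, with all of complex II, the isoform families and the chromosome 2 genes, and in other lists up to 4 called genes. Alternatives covered the pseudocount, the filter, scaling, the prior, a replicate block, each library left out, libraries PFN1 KO 1 and control 4 left out, chromosome 2 left out and the authors' deposited test. Near-identical copies were sought among annotated GENCODE transcripts with blastn 2.17.0. All 82 symbols were matched to RefSeq, whose GRCm38.p6 promoter table gave the sequences. The fit was tested on simulated data. Some genes counted in the totals are not reported here by name.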

Additional observations from a re-analysis of the deposited data

Results flagged for a closer look

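Among 222 groups of 4 values, 8 (3.6%) held 1 library that stood far from the other 3 by Dixon's gap test at the 95% level; chance alone marks about 1 group in 20. In PFN1 KO, library 1 was the one that stood apart each time. It had 310 RPKM of Uqcrq, against 255 to 262 RPKM in the other 3, 103 RPKM of Ndufb6, against 122 to 123 RPKM, and 88.3 RPKM of Usmg5, against 105 to 107 RPKM. In control, library 4 had 117 RPKM of Atpif1, against 101 to 102 RPKM in the other 3, 99.1 RPKM of Ndufb2, against 85.7 to 87.5 RPKM, and 4.87 RPKM of Atp5g1, against 5.54 to 5.66 RPKM. Control library 1 had 142 RPKM of Ndufb11, against 131 to 132 RPKM, and control library 2 had 86.0 RPKM of Ndufa2, against 93.2 to 94.2 RPKM. The part of these libraries in each value was not tested.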

How the results depend on the processing

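Against 14 subunit genes higher and 22 lower of 79, median-of-ratios scaling gave 8 higher and upper-quartile scaling 8. Leaving out chromosome 2 gave 9 higher of the 73 genes left. That setting removed Ndufa8, Ndufs3, Atp5e and Atp5g3 from the set, and Ndufb7 lost its call. The median log2 fold change of the subunit genes, 0.011, became -0.060 under median-of-ratios scaling, -0.052 under upper-quartile scaling and -0.017 under cyclic loess. Over all tested genes the median, 0.058, became -0.008, 0.000 and 0.001 under those 3 settings. There the count of all genes called higher became 2578, 2701 and 2726, against 3489, and of those called lower 2871, 2758 and 2730, against 1772. The cause was not tested. Leaving out 1 library at a time gave 13 to 15 subunit genes higher, 19 to 22 lower and a median of -0.008 to 0.023, with 2888 to 3941 of all genes higher and 1447 to 1657 lower. In every one of 22 alternatives, where the gene was fitted, 8 of the 14 higher calls (Atp5e, Atp5g3, Cox4i1, Cox6a1, Ndufa2, Ndufa8, Ndufs3 and Ndufv1) and 15 of the 22 lower calls were kept. The authors' deposited table kept 11 and 18. Replicate numbers showed no pairing of the libraries. Deviations from the group means, over the tested genes, correlated at 0.176, 0.0233, -0.192 and -0.0839 between same-numbered PFN1 KO and control libraries. Between libraries of unlike number they correlated at -0.316 to 0.26. A fit with the replicate number as a block gave 14 higher and 21 lower. Genes near 1 RPKM rest on few reads, and an SE of 0.042 leaves changes of a few percent undetectable.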
